A study of Mus musculus with 12 samples.

Results

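The mitochondrial carrier family, named Slc25 for solute carrier family 25, was examined in the adult left ventricle of mice that lost the cardiac transcription factor Nkx2-5 from the developing trabeculae. Members were all probes whose gene name on the array began with Slc25a, together with Ucp1 and Ucp2, the uncoupling proteins of the same family. This rule, which used no measured value, took 55 of the 55681 probes of the array, from 46 genes. A probe was kept when, in 1 group or more, 3 or 4 of its arrays read it well above background. This kept 44 member probes of 37 genes, out of 24593 probes over 18021 gene names.

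Gene expression was measured on 1-colour microarrays, 1 array per mouse, in 12 hearts at 6 months of age. The tissue was the left ventricular free wall with the apex and without the septum. In both mutant groups, floxed Nkx2-5 (the Floxed-Nkx2-5-ΔNeo allele) was deleted by Cx40-creERT2, a Cre recombinase driven from the Cx40 locus and activated by tamoxifen given to the pregnant female. The 4 Nkx2-5ΔTrbE10 hearts (Nkx2-5Δtrab in the labels) came from females given tamoxifen at E10.5 and again at E11.5, and the 4 Nkx2-5ΔTrbE14 hearts (Nkx2-5Δcomp in the labels) from females given it at E13.5 and again at E14.5. For the 4 controls, the labels give no injection, whereas the study's methods describe floxed littermates without Cre. The pups of treated females were delivered by caesarean section and raised by CD1 foster mothers. Cx40 is active in trabecular cardiomyocytes and the conduction system derived from them, and also in arterial endothelium, so deletion concerned only some cells of the wall. Lower signal can come from fewer cells of a type or from less RNA per cell, and bulk samples do not tell these apart.

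Carriers of this family sit mostly in the inner mitochondrial membrane and move nucleotides, phosphate, carboxylates, amino acids, carnitine, cofactors and iron precursors between cytosol and matrix. Each is built of repeated carrier modules with a signature that begins with proline and an acidic residue. In cardiomyocytes, which fill much of their volume with mitochondria, the ADP/ATP and phosphate carriers feed ATP synthesis, and the carnitine carrier admits fatty acids for oxidation. The question put to the data was whether levels of these carriers differed in hearts that had lost Nkx2-5 from trabeculae early or late.

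The probes below lie in coding sequence and are those on which the accounts of the ADP/ATP, iron, carnitine and S-adenosylmethionine carriers rest. Capitals mark codons of the carrier signature as found by translating each probe, in full for Slc25a26 and as its opening codons at the probe's 3′ end for Slc25a37. The other probes shown hold none of it.
Slc25a4: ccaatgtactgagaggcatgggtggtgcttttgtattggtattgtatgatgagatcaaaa
Slc25a37 (5′ probe): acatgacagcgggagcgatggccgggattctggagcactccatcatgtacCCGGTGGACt
Slc25a20: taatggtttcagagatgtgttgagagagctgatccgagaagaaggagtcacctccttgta
Slc25a26 (5′ probe): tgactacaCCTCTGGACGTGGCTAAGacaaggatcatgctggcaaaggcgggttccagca
On the mm9 build used by the array files, they map to chr8:47292828-47292887 on the minus strand, chr14:69902797-69902856 on the minus strand, chr9:108585399-108585458 on the plus strand, and, across a splice junction, chr6:94548392-94549185 on the plus strand. The full signature was read in an open frame of 1 of the 52 member probes searched, and of 0.707% of the 55626 probes of other genes.

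The tissue matched its label. All 12 cardiomyocyte markers listed passed the filter, and their summed signal lay between 20.69 and 20.82 on the log2 scale in every heart. This sum was weighted to the brightest markers, such as Myl3 at 18.18 to 18.32, near the top of the intensity distribution. Quantile normalisation pulls arrays together there, so the narrow range does not show that cardiomyocyte content was equal between hearts. With all arrays, none was called. The smallest p was that of the calcium release channel Ryr2 in Nkx2-5ΔTrbE10, at -0.41 (adjusted p = 0.0918), and of the myosin heavy chain Myh6 in Nkx2-5ΔTrbE14, at -0.21 (adjusted p = 0.332). Without Nkx2-5ΔTrbE10 heart 2, 1 of the 12 was called in that mutant. Nkx2-5 signal lay from 11.89 to 12.23 in controls, and averaged 11.34 ± 0.22 in Nkx2-5ΔTrbE10 and 11.41 ± 0.23 in Nkx2-5ΔTrbE14 (log2 intensity, mean ± SD, n = 4), with limma adjusted p = 0.0459 and 0.106 against control. The arrays of controls and Nkx2-5ΔTrbE14 shared slide 1, in different rows, and those of Nkx2-5ΔTrbE10 were all on slide 2. Slide and early deletion therefore cannot be told apart. Nkx2-5ΔTrbE14 and control were compared within 1 slide, where row and late deletion cannot be told apart. Y-linked genes were expressed in 1 of 4 control, 2 of 4 Nkx2-5ΔTrbE10 and 3 of 4 Nkx2-5ΔTrbE14 hearts. Precision rests on 4 arrays per group.

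No carrier passed the test for a difference between groups. In Nkx2-5ΔTrbE10 against control, 0 of 44 member probes had an adjusted p under 0.05, where 1.69% of all probes tested did. In Nkx2-5ΔTrbE14 against control, 0 of 44 did, against 0.602% of all probes. Between the mutants, 0 of 44 did, and 0% of all probes. At an unadjusted p under 0.05 there were 6 member probes in Nkx2-5ΔTrbE10 (5 lower), 2 in Nkx2-5ΔTrbE14 (1 lower) and 2 between the mutants, where the shares over all probes were 16.4%, 13.6% and 5.76%. SAM, a permutation-based test, called 0, 0 and 1 member probes in these comparisons, and 522, 326 and 2 of all probes (2.12%, 1.33% and 0.00813%). Arrays of the compared groups did not overlap for 1, 3 and 1 member probes, where 10.1%, 9.43% and 3.16% of all probes did not.

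The members lay slightly to the lower side in both mutants. With the brightest probe of each gene, 27 of 37 carriers were lower in Nkx2-5ΔTrbE10 than in control, with a median log2 change of -0.11, where 54.8% of all genes were lower and the median was -0.02. In Nkx2-5ΔTrbE14, 25 of 37 were lower with a median of -0.07, where 55.9% of all genes were lower and the median was -0.03. Both comparisons used the same 4 controls. For 33 of 37 carriers, the 95% interval of the change lay within 1 log2 unit of 0 in either mutant, as it did for 84.1% and 84.8% of all genes. The remaining carriers were Ucp2, Slc25a29, Slc25a33 and Slc25a47, whose intervals reached beyond 1 log2 unit.

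**Figure D1:**
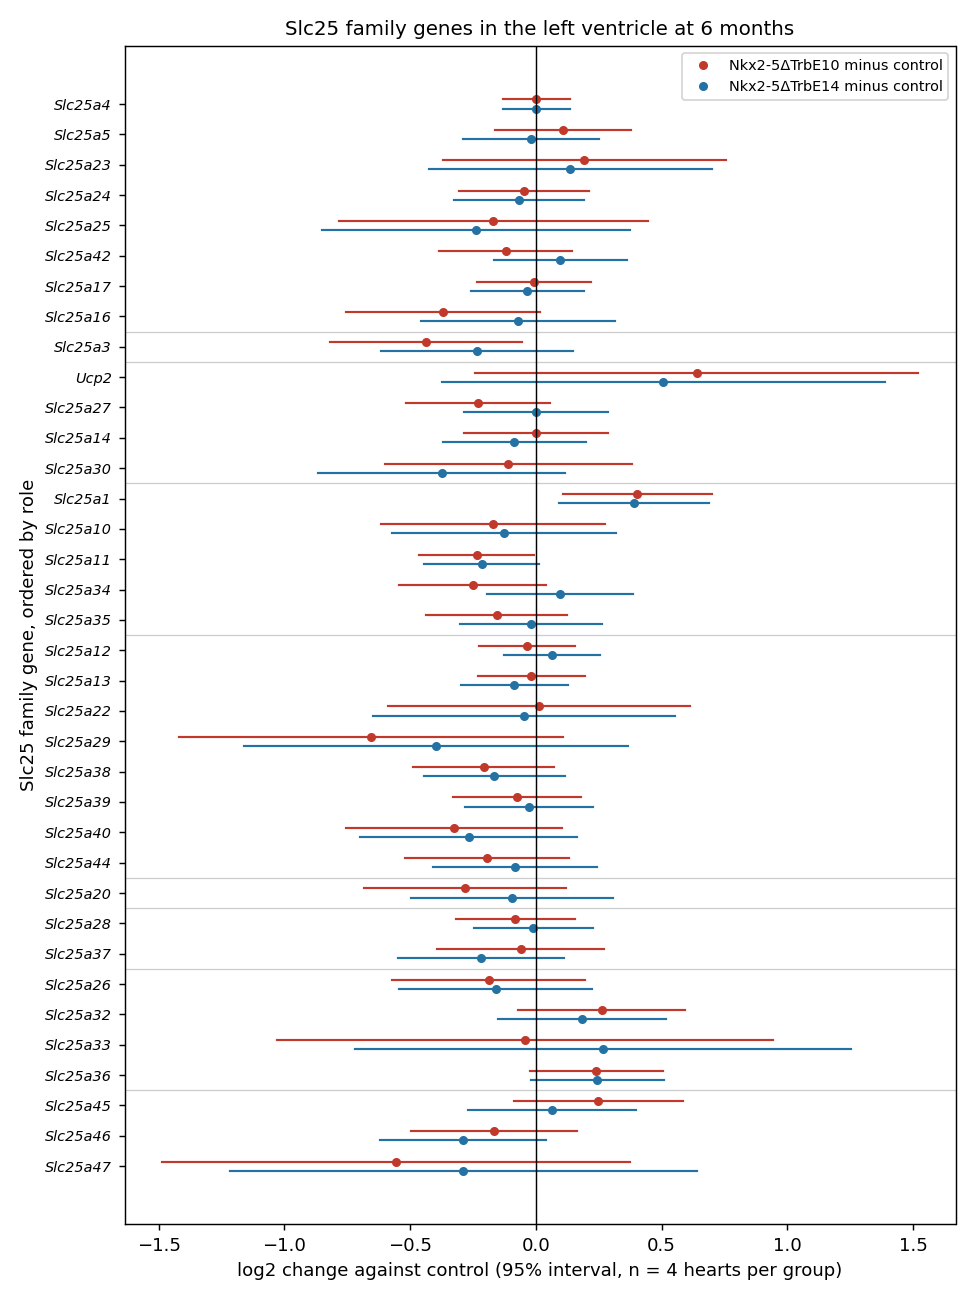
Log2 change of the brightest probe of each Slc25 family gene shown against control (x axis), with genes ordered by role and grey lines between roles. Points are differences of group means and lines their 95% intervals (4 hearts per group), red for Nkx2-5ΔTrbE10 and blue for Nkx2-5ΔTrbE14, and for most genes both intervals include 0.

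Among carriers of adenine nucleotides, the ADP/ATP carrier Slc25a4, the main heart form, had the same level in all groups. Its signal was 17.73, 17.69, 17.69 and 17.67 in controls, 17.70, 17.71, 17.72 and 17.64 in Nkx2-5ΔTrbE10, and 17.69, 17.71, 17.71 and 17.66 in Nkx2-5ΔTrbE14. The groups overlapped, and the 95% interval of the log2 change ran from -0.13 to 0.14 in Nkx2-5ΔTrbE10. Such a bright probe lies near the top of the intensity distribution, where quantile normalisation pulls arrays together. Before normalisation, the 12 arrays ran from 17.45 to 17.92, and with each array scaled to its 75th percentile the changes were -0.06 and -0.04. Slc25a5, the other ADP/ATP carrier measured, had log2 changes of 0.11 and -0.02, while Slc25a31, the germ cell form, was well above background on 0 arrays. Slc25a16, a carrier linked to coenzyme A, had the largest difference of the 8 nucleotide and coenzyme A carriers measured, at -0.37 in Nkx2-5ΔTrbE10 (95% interval -0.75 to 0.02, adjusted p = 0.327).

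The phosphate carrier Slc25a3, which brings in the phosphate for ATP synthesis, was read by 2 probes near the end of its transcript, 198 bases apart. The probe nearer the 3′ end gave 13.13, 12.96, 12.83 and 13.16 in controls, 12.40, 12.91, 12.05 and 12.23 in Nkx2-5ΔTrbE10, and 12.64, 12.79, 12.12 and 12.26 in Nkx2-5ΔTrbE14. Every Nkx2-5ΔTrbE14 heart lay below every control, and in Nkx2-5ΔTrbE10 only heart 2 reached the control range. The log2 changes were -0.62 (95% interval -1.05 to -0.19, adjusted p = 0.144) and -0.57 (-0.998 to -0.138, adjusted p = 0.256). Without Nkx2-5ΔTrbE10 heart 2, the change in that group was -0.80 with adjusted p = 0.0363, while adjusted p ran from 0.0363 to 0.329 over all the alternatives. The other, brighter probe differed less, by -0.44 (adjusted p = 0.248) and -0.23 (adjusted p = 0.559). That probe ranked the hearts differently. Nkx2-5ΔTrbE10 heart 4 gave 14.04 with it, inside the control range of 13.95 to 14.18, but 12.23 with the more 3′ probe, below every control.

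Among carboxylate carriers, the citrate carrier Slc25a1, which exports citrate for lipid synthesis, was the only measured member of its role with a higher mean in Nkx2-5ΔTrbE10. It read 8.03, 8.18, 8.29 and 8.57 in controls, 8.73, 8.52, 8.86 and 8.57 in Nkx2-5ΔTrbE10, and 8.44, 8.64, 8.89 and 8.68 in Nkx2-5ΔTrbE14. Control 4 lay inside the range of both mutants. The log2 changes were 0.40 and 0.39, with 95% intervals of 0.11 to 0.70 and 0.09 to 0.69 and adjusted p = 0.169 and 0.257. The oxoglutarate carrier Slc25a11, which works in the malate-aspartate shuttle, read 15.49, 15.41, 15.60 and 15.60 in controls, 15.05, 15.52, 15.19 and 15.40 in Nkx2-5ΔTrbE10, and 15.23, 15.33, 15.30 and 15.39 in Nkx2-5ΔTrbE14. All Nkx2-5ΔTrbE14 hearts lay below all controls, with changes of -0.23 (adjusted p = 0.295) and -0.21 (adjusted p = 0.393) in the early and late mutants. Slc25a34, a less studied member of this branch, differed between the mutants by -0.35 (Nkx2-5ΔTrbE10 minus Nkx2-5ΔTrbE14, 95% interval -0.64 to -0.05, adjusted p = 0.799).

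**Figure D2:**
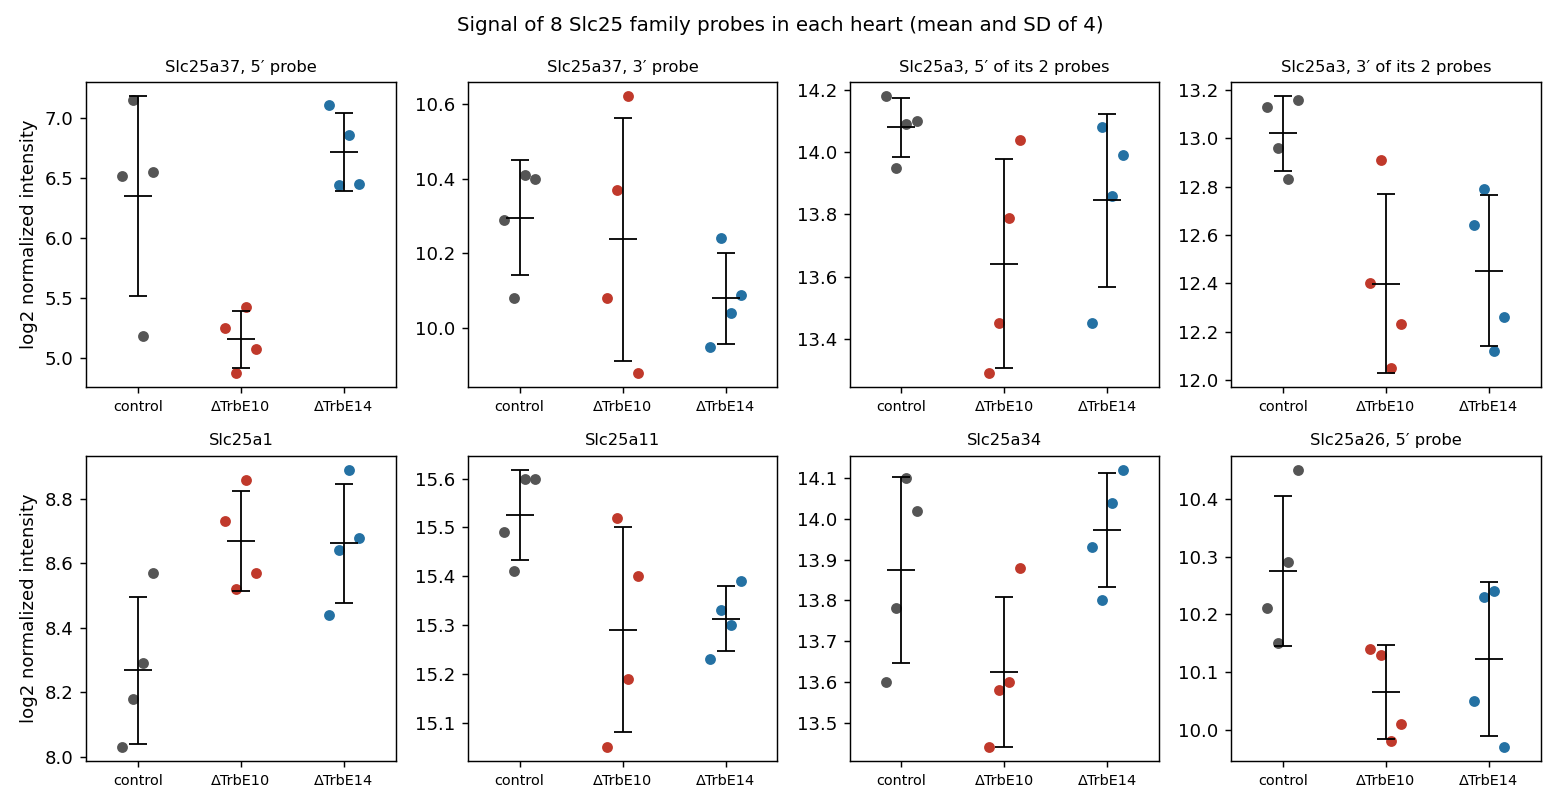
Log2 normalised intensity (y axis) of 8 Slc25 family probes in each heart of the 3 groups, 1 point per heart, with group mean and SD of 4 hearts in black. For the 5′ probe of Slc25a37 the Nkx2-5ΔTrbE10 hearts, at 4.87 to 5.42, lie below all Nkx2-5ΔTrbE14 hearts, at 6.44 to 7.11, and this separation is not seen with its 3′ probe.

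The iron carrier Slc25a37 (mitoferrin 1), which supplies iron for haem and iron-sulphur clusters, gave different pictures with its 2 probes. The 5′ probe, starting at base 304 of the transcript and printed above, gave 6.52, 7.15, 5.18 and 6.55 in controls, 5.25, 4.87, 5.42 and 5.07 in Nkx2-5ΔTrbE10, and 7.11, 6.44, 6.86 and 6.45 in Nkx2-5ΔTrbE14. All Nkx2-5ΔTrbE10 hearts lay below all Nkx2-5ΔTrbE14 hearts, and control 3 lay among the Nkx2-5ΔTrbE10 hearts. The log2 difference was -1.56 between the mutants (95% interval -2.32 to -0.81, adjusted p = 0.363) and -1.20 in Nkx2-5ΔTrbE10 against control (-1.96 to -0.44, adjusted p = 0.113). Without control 3, the latter became -1.60 with adjusted p = 0.00965. Over all the alternatives it ran from -1.60 to -0.60, with adjusted p from 0.00965 to 0.243. SAM called this probe between the mutants, as 1 of 2 probes on the array. This probe was dim, being well above background on 3 of the 4 Nkx2-5ΔTrbE10 arrays, and with normexp background correction the difference between the mutants was -0.82.

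The 3′ probe of Slc25a37, starting at base 3990 (mm9 chr14:69860020-69860079, minus strand), gave 10.29, 10.08, 10.41 and 10.40 in controls, 10.08, 10.37, 10.62 and 9.88 in Nkx2-5ΔTrbE10, and 9.95, 10.24, 10.04 and 10.09 in Nkx2-5ΔTrbE14. The groups overlapped in every comparison. Its log2 difference was 0.16 between the mutants (adjusted p = 0.952), -0.06 in Nkx2-5ΔTrbE10 (95% interval -0.39 to 0.27) and -0.22 in Nkx2-5ΔTrbE14 (-0.55 to 0.11) against control. To place the gap between the probes, the change of the 5′ probe minus that of the 3′ probe was taken for the 1306 transcripts with probes at least 1000 bases apart. Some genes, such as Tmem201, entered with more than 1 transcript. Between the mutants the median over these transcripts was -0.01, with quartiles of -0.12 and 0.11, and Slc25a37 at -1.72 had the lowest value. This comparison was added after the gap was seen. The transcripts were not matched for signal to the dim 5′ probe, so the rank is a description and not a test. Against control, Slc25a37 lay at -1.14 in Nkx2-5ΔTrbE10, where 3 other transcripts were as low, and at 0.58 in Nkx2-5ΔTrbE14. The array medians of the 5′ minus 3′ signal differed little, from -0.04 to 0.08, and the highest was Nkx2-5ΔTrbE14 heart 3.

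**Figure D3:**
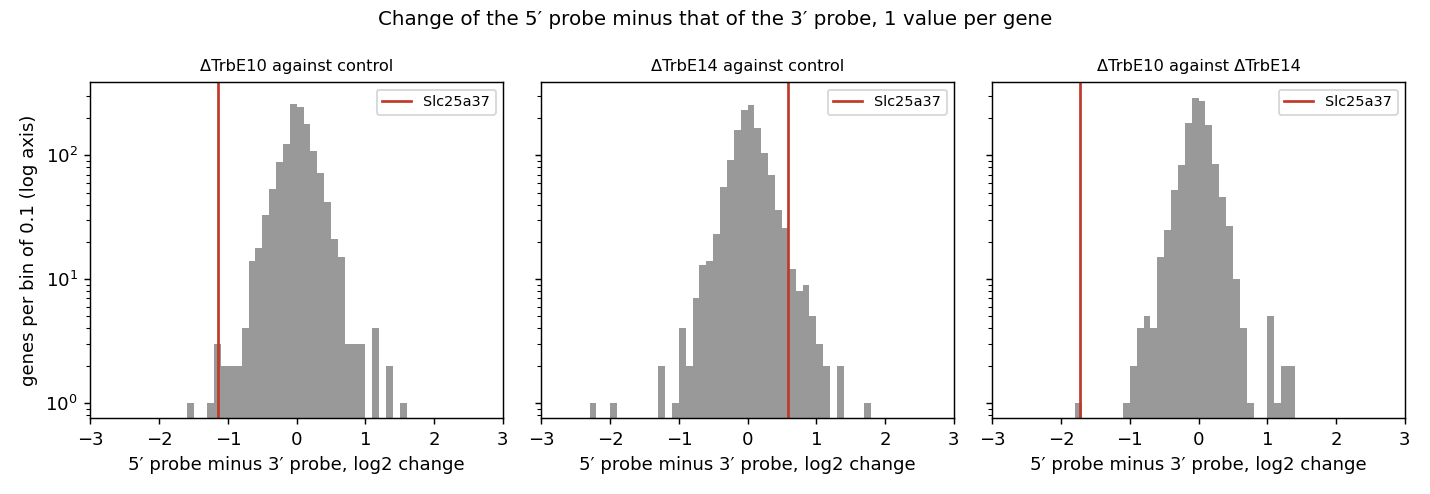
Histograms over 1306 transcripts (labelled as genes) of the log2 change of the 5′ probe minus that of the 3′ probe (x axis) in the 3 comparisons, with a log axis for the number per bin. The red line marks Slc25a37, at -1.14, 0.58 and -1.72 from left to right, and most transcripts lie near 0.

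Markers of red cells, in whose precursors Slc25a37 serves haem synthesis, were given beside it because blood remains in heart tissue. Of 11 erythroid markers on the array, 7 passed the filter and 0 were called, with median log2 changes of 0.29 and 0.22. The smallest p values were those of Hbb-b2 in Nkx2-5ΔTrbE10, at 0.72 (adjusted p = 0.633), and Rhd in Nkx2-5ΔTrbE14, at -0.49 (adjusted p = 0.322). The log2 of their summed signal ran from 17.06 to 18.10 in controls, 17.12 to 18.61 in Nkx2-5ΔTrbE10 and 17.65 to 18.33 in Nkx2-5ΔTrbE14. Ahsp, Epb4.2 and Trim10 were among the erythroid markers that did not pass. The highest sum and the highest Slc25a37 3′ probe value, 10.62, were both in Nkx2-5ΔTrbE10 heart 3, and the part of blood in the Slc25a37 values was not tested. Slc25a28 (mitoferrin 2), the more widely expressed iron carrier, had changes of -0.08 and -0.01.

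The carnitine-acylcarnitine carrier Slc25a20, by which long-chain fatty acids enter the matrix, gave 11.01, 10.62, 11.11 and 11.19 in controls, 10.42, 11.08, 10.39 and 10.92 in Nkx2-5ΔTrbE10, and 10.74, 10.70, 11.02 and 11.08 in Nkx2-5ΔTrbE14. The groups overlapped. The log2 changes were -0.28 (95% interval -0.68 to 0.12, adjusted p = 0.478) and -0.10 (-0.50 to 0.31, adjusted p = 0.834). Of 11 other genes of carnitine and fatty acid import and of fatty acid oxidation, 0 were called in either mutant. Their median was -0.16 with 10 of 11 lower in Nkx2-5ΔTrbE10, and 0.03 with 3 of 11 lower in Nkx2-5ΔTrbE14. Cpt2, the inner membrane carnitine palmitoyltransferase, had the smallest p in the early mutant, at a change of -0.32 (adjusted p = 0.287), and Acadvl, the very long-chain acyl-CoA dehydrogenase, in the late one, at -0.20 (adjusted p = 0.495).

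Of the 8 amino acid and glutathione carriers measured, 7 had lower means in each mutant, with medians of -0.14 and -0.08, and 0 passed the test. The brightest was the aspartate-glutamate carrier Slc25a12, which completes the malate-aspartate shuttle, with changes of -0.04 and 0.06. Its relative Slc25a13 had changes of -0.02 and -0.09. Slc25a29, a carrier of basic amino acids, had the largest difference, -0.65 in Nkx2-5ΔTrbE10 (95% interval -1.42 to 0.11, adjusted p = 0.381). It gave 9.76, 9.72, 10.00 and 10.20 in controls, 9.01, 10.34, 9.01 and 8.70 in Nkx2-5ΔTrbE10, and 9.95, 10.00, 9.25 and 8.90 in Nkx2-5ΔTrbE14. Nkx2-5ΔTrbE10 heart 2 lay above all controls, the other 3 hearts of that mutant lay below them, and without heart 2 the change was -1.01 with adjusted p = 0.0687. Over all the alternatives the change ran from -1.01 to -0.47, with adjusted p from 0.0687 to 0.614. Slc25a40, linked to glutathione import, had changes of -0.32 and -0.27, and Slc25a38, which carries glycine for haem synthesis, -0.21 and -0.16. The 4 shuttle enzymes Got1, Got2, Mdh1 and Mdh2 were all lower on average in both mutants, with medians of -0.18 and -0.08 and 0 called. Got1, the cytosolic aspartate aminotransferase, had the smallest p in Nkx2-5ΔTrbE10, at -0.30 (adjusted p = 0.257), and Mdh2, the mitochondrial malate dehydrogenase, in Nkx2-5ΔTrbE14, at -0.09 (adjusted p = 0.611).

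Among the 5 carriers of vitamins, cofactors and pyrimidine nucleotides, the S-adenosylmethionine carrier Slc25a26 was the member whose Nkx2-5ΔTrbE10 hearts did not overlap the controls. Its 5′ probe gave 10.21, 10.15, 10.29 and 10.45 in controls, 10.14, 10.13, 9.98 and 10.01 in Nkx2-5ΔTrbE10, and 10.05, 10.23, 10.24 and 9.97 in Nkx2-5ΔTrbE14. The gap was small, between 10.14 and 10.15, and the change was -0.21 (adjusted p = 0.297). Its 3′ probe, 1080 bases further on, gave a similar change of -0.19 with overlapping groups. Slc25a36, a pyrimidine nucleotide carrier, read 8.24, 8.23, 7.79 and 8.12 in controls, and from 8.25 to 8.46 in Nkx2-5ΔTrbE14. Those groups did not overlap, with a change of 0.24 (95% interval -0.02 to 0.51, adjusted p = 0.397), and the change in Nkx2-5ΔTrbE10 was also 0.24. Slc25a32, a folate and flavin carrier, had changes of 0.26 and 0.18.

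Members without an assigned substrate or with another role had no call either. Slc25a46, an outer membrane protein that takes part in mitochondrial fission, had changes of -0.16 and -0.29 with its brighter probe (adjusted p = 0.633 and 0.421). Its dimmer probe gave 0.03 and -0.02. Slc25a47, known mainly from liver, had a change of -0.56 in Nkx2-5ΔTrbE10, where heart 2 gave 5.50 and the other 3 hearts 7.51 to 7.86. Of the uncoupling protein relatives, Slc25a27 had changes of -0.23 and 0.00 and Slc25a30 of -0.11 and -0.37, all with adjusted p above 0.4. Ucp1, the uncoupling protein of brown fat, was well above background on 1 of 12 arrays, Nkx2-5ΔTrbE14 heart 2, and was not tested. The other 8 genes that did not pass the filter were Slc25a2, Slc25a15, Slc25a18, Slc25a21, Slc25a31, Slc25a41, Slc25a43 and Slc25a48, of which Slc25a18 was well above background on 1 array and the rest on 0.

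Several carriers varied widely between hearts of the same group. The pooled SD within groups had a median of 0.22 log2 units over the 37 carriers and 0.21 over all genes, and ran from 0.03 for Slc25a4 to 0.70 for Slc25a33. The next highest were Slc25a47 (0.66), Ucp2 (0.62), Slc25a29 (0.54) and Slc25a25 (0.43). Ucp2, which moves small metabolites and has been linked to fatty acid use, gave 8.88, 9.18, 9.46 and 10.52 in controls, 10.13, 9.24, 10.49 and 10.74 in Nkx2-5ΔTrbE10, and 9.96, 9.37, 10.46 and 10.27 in Nkx2-5ΔTrbE14. Low and high hearts were found in every group, and the changes of 0.64 and 0.51 had adjusted p = 0.461 and 0.581.

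Ucp3, the muscle uncoupling protein, which carries no Slc25a name and was outside the rule, followed Ucp2 from heart to heart. The brighter of its 2 probes gave 9.01, 9.33, 9.80 and 10.41 in controls, 9.90, 9.41, 10.56 and 10.73 in Nkx2-5ΔTrbE10, and 9.95, 9.41, 10.52 and 10.56 in Nkx2-5ΔTrbE14. The relation with Ucp2 was computed with this probe only. Over deviations from the group means in 12 hearts, Pearson's r was 0.96 (permutation p = 0.00015) and Spearman's rho 0.95 (permutation p = 0.00035), with permutations made within groups and two-sided. These p-values became 0.00225 and 0.00525 when adjusted over the 15 relations computed among the 5 most variable members and Ucp3. Without the 2 hearts farthest from the median of Ucp2, control 4 and Nkx2-5ΔTrbE10 heart 2, r was 0.96, and over the 8 hearts of slide 1 it was also 0.96. Slide 2 held 4 hearts, too few for its own value. This relation was chosen after the values were seen. In the RefSeq gene table (GRCm38.p6) Ucp3 and Ucp2 are neighbours with 0 genes between them, and their probes, on mm9 chr7:107630399-107630458 and chr7:107647809-107647868, share no run longer than 5 bases.

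Slc25a33, a pyrimidine nucleotide carrier, was highest in the same hearts as the clock gene Per1. Slc25a33 gave 10.59, 11.10, 10.96 and 10.76 in controls, 10.22, 10.02, 10.96 and 12.03 in Nkx2-5ΔTrbE10, and 10.51, 10.41, 11.99 and 11.57 in Nkx2-5ΔTrbE14. Its other probe, 608 bases nearer the 5′ end, was also highest in Nkx2-5ΔTrbE14 hearts 3 and 4 and Nkx2-5ΔTrbE10 heart 4, at 8.97, 8.85 and 8.79. Per1 gave 14.03, 13.84 and 14.19 in these hearts and 10.27 to 12.58 in the other 9. Slc25a29 was lowest in 2 of these hearts, at 8.70 in Nkx2-5ΔTrbE10 heart 4 and 8.90 in Nkx2-5ΔTrbE14 heart 4. Dbp, a clock output gene with strong daily swings, gave 11.21 in control 1, 11.98 in Nkx2-5ΔTrbE14 heart 2, 11.81 in Nkx2-5ΔTrbE10 heart 2 and 13.42 or more in the other 9. Ucp2 was 8.88, 9.37 and 9.24 in those hearts, and also low in controls 2 and 3, at 9.18 and 9.46, where Dbp was 13.94 and 14.24. Because Per1 and Dbp fell into separate clusters of hearts, no correlation with them was computed, and the part of clock phase in the carriers' values was not tested. The 9 clock genes measured had median changes of -0.01 and 0.02, with 0 called and the smallest p for Hlf in Nkx2-5ΔTrbE10 (-0.29, adjusted p = 0.608) and Nr1d1 in Nkx2-5ΔTrbE14 (0.71, adjusted p = 0.574). Of the other 14 relations, 0 had an adjusted Pearson p under 0.05, and the Spearman correlation of Slc25a29 and Slc25a47 was -0.73 with adjusted permutation p = 0.0422 and rested partly on Nkx2-5ΔTrbE10 heart 2, since Pearson's r moved from -0.81 to -0.55 without that heart and Nkx2-5ΔTrbE14 heart 2.

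**Figure D4:**
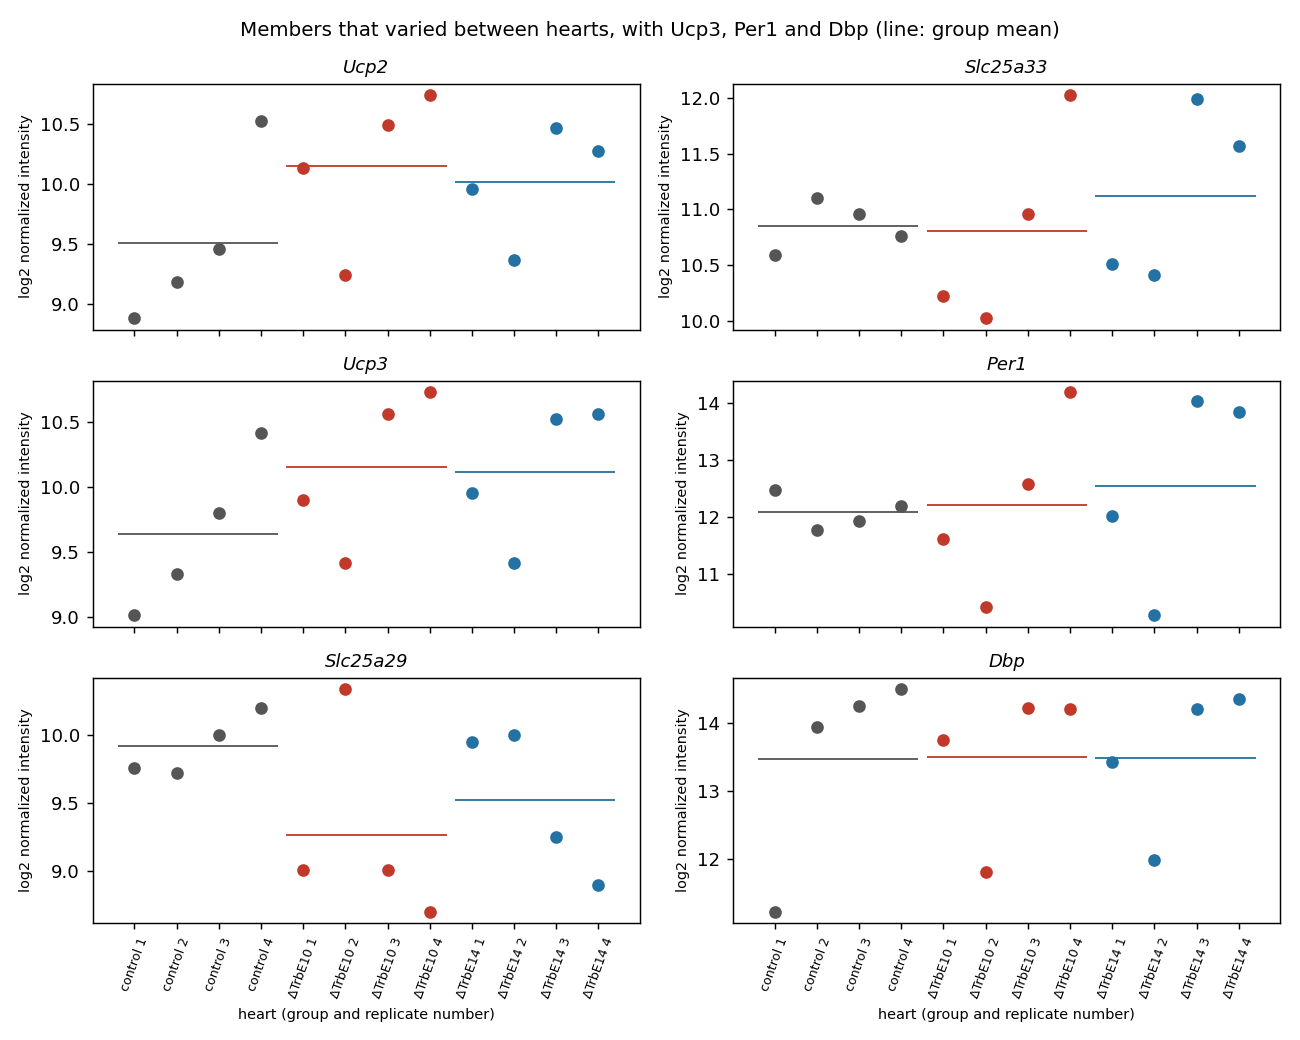
Log2 normalised intensity (y axis) of Ucp2, Slc25a33 and Slc25a29, and of Ucp3, Per1 and Dbp, in each of 12 hearts (x axis, replicate number within group), with lines for group means. Ucp2 and the brightest Ucp3 probe share the order of low and high hearts. Slc25a33 and Per1 are highest in Nkx2-5ΔTrbE10 heart 4 and Nkx2-5ΔTrbE14 hearts 3 and 4.

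Paralogs were also compared within each array, so that differences common to an array cancel. For the 6 measured pairs, including Slc25a4 with Slc25a5 and Slc25a37 (3′ probe) with Slc25a28, 18 differences were tested by an exact two-sided permutation test, whose smallest p with 4 hearts per group is 0.0286. A single pair could therefore not pass after adjustment over the 18 tests, and the differences are given as values. The smallest exact p was 0.114, for Slc25a37 minus Slc25a28 in Nkx2-5ΔTrbE14 against control, at -0.21.

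Genes that work with these carriers had no call either with all arrays. The 9 partners of the ADP/ATP carrier, such as creatine kinases, voltage-dependent anion channels and ATP synthase subunits, had medians of -0.13 (0 of 9 higher) and -0.01 (3 of 9 higher). Ppif (cyclophilin D), which regulates the permeability transition pore, had the smallest p in both mutants, at -0.36 (adjusted p = 0.228) and -0.30 (adjusted p = 0.364). The 2 genes of the mitochondrial pyruvate carrier, named Brp44 and Brp44l on the array, had changes of -0.27 and -0.23 in Nkx2-5ΔTrbE10 and -0.14 and -0.25 in Nkx2-5ΔTrbE14, with adjusted p from 0.201 to 0.519. Of 20 genes of cellular and mitochondrial iron, haem and iron-sulphur clusters, 15 were lower on average in Nkx2-5ΔTrbE10 and 13 in Nkx2-5ΔTrbE14, with medians of -0.10 and -0.06. Cpox, a haem synthesis enzyme, had the smallest p in the early mutant, at -0.39 (adjusted p = 0.0701), and Hmox1, which degrades haem, in the late mutant, at 0.90 (adjusted p = 0.0883). Of 9 regulators of mitochondrial genes, Ppara, the fatty acid-sensing nuclear receptor, had the smallest p in both, at -0.57 (adjusted p = 0.110) and -0.48 (adjusted p = 0.254), and the list medians were -0.13 and -0.05. Without Nkx2-5ΔTrbE10 heart 2, 1 of these 9 regulators was called in that mutant. So were 1 of the 20 iron and haem genes and 1 of the 2 pyruvate carrier genes, but 0 of the 9 partners of the ADP/ATP carrier. Of 5 family members with other names on the array, 4 were measured and 0 called. By brightest probe, Mtch2, an outer membrane relative, had the smallest p among them in the early mutant, at -0.15 (adjusted p = 0.536). In the late mutant it was Ucp3, at 0.47 (adjusted p = 0.585). Ucp3 had 2 probes, and the value given is that of the 5′ one. Its change minus that of the 3′ probe was -0.43 in Nkx2-5ΔTrbE10 and -0.997 in Nkx2-5ΔTrbE14, so the 3′ probe gave larger rises.

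Most macrophage markers had higher means in both mutants (13 and 14 of 15). By the brightest probe, 5 of 15 rose in Nkx2-5ΔTrbE10 (Aif1, C1qa, C1qc, Cd68 and Csf1r) and Csf1r rose in Nkx2-5ΔTrbE14, with list medians of 0.60 and 0.26. Itgam, an integrin subunit of myeloid cells, gave -0.09 with its brightest probe (adjusted p = 0.729) and 0.60 with a dimmer one (adjusted p = 0.0392). The log2 of their summed signal ran from 14.30 to 14.47 in controls, 14.80 to 15.05 in Nkx2-5ΔTrbE10 and 14.67 to 14.84 in Nkx2-5ΔTrbE14, so that neither mutant overlapped the controls. This sum was weighted to Csf1r and Itgam, the brightest of the list. Csf1r alone ran from 12.15 to 12.43 in controls, 13.26 to 13.48 in Nkx2-5ΔTrbE10 and 13.1 to 13.23 in Nkx2-5ΔTrbE14, and no sum was made without it. Of 7 adipocyte markers, 6 passed, with medians of -1.31 and -0.34 and 0 called, while Lep did not pass. The first median rested on Nkx2-5ΔTrbE10 heart 2, and without that heart it was -0.57. Adipoq, the adipocyte hormone adiponectin, was 3.91 in heart 2, 6.49 to 7.12 in the other Nkx2-5ΔTrbE10 hearts and 7.06 to 8.18 in controls. The log2 summed signal, at 13.502 to 13.655 in controls, 13.55 to 14.06 in Nkx2-5ΔTrbE10 and 13.59 to 14.02 in Nkx2-5ΔTrbE14, was set by Cidea, at 13.34 to 13.90 over the 12 hearts. Summed without Cidea, the other 5 gave 10.10 to 11.31 in controls, 6.57 in Nkx2-5ΔTrbE10 heart 2, 9.01 to 10.76 in the other hearts of that mutant and 9.57 to 10.95 in Nkx2-5ΔTrbE14. Plin1, a lipid droplet protein, had the smallest p in Nkx2-5ΔTrbE10, at -1.06 (adjusted p = 0.228), and Cidea in Nkx2-5ΔTrbE14, at 0.33 (adjusted p = 0.289). The part of either cell type in the carriers' values was not tested.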

How the data were processed

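Total RNA of the left ventricle was hybridised to SurePrint mouse arrays with 1 dye. The deposited scanner files give the background-subtracted intensity of each spot from Agilent Feature Extraction 10.5.1.1 (10.5 in the submitters' processing notes), with mm9 probe positions. The authors also deposited a table of log2 values, quantile normalised and filtered, whose columns had medians of 8.58 to 8.60 and correlated with the scanner values at 0.997 or more, so its scale was log2 and uncentred. It holds 22114 spots and served as an alternative.

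Log2 processed intensities of non-control spots were quantile normalised after outlier-flagged spots (93 to 131 per array) were removed, and spots of 1 probe were averaged. The 75th percentile of intensity was 195 to 250 per array. The filter took 3 of 4 arrays of any group. One mean per group was fitted with limma 3.58.1 in R 4.3.3 to all 12 arrays, with Benjamini-Hochberg adjustment over 24593 probes (9 residual and 2.19 prior degrees of freedom), and 0.05 as the threshold. The procedure was tested on simulated data. The brightest filtered probe stood for a gene in lists and medians. Arrays are separate mice.

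Members, gene lists and tests were chosen with earlier results of these data known. Named were Slc25a4, Slc25a37 and Slc25a20, the 10 carriers with the smallest p in each mutant, and in each role the brightest and the most changed. Genes outside this rule, such as Slc25a26, were named after their values were seen. A carrier that this rule names is not reported here. All 46 member symbols were current in RefSeq. Alternatives were 75th percentile scaling, normexp, filtering on 9 of 12 arrays or not at all, fitting 2 groups only or the authors' table, a replicate block, sex, SAM at 5% and leaving out each array. The comparison of 5′ and 3′ probes and the relations between hearts were added after seeing the data, as were the list medians and calls without Nkx2-5ΔTrbE10 heart 2.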

Additional observations from a re-analysis of the deposited data

Results flagged for a closer look

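Among 26 probes of the named carriers, in 78 groups of 4 hearts, 3 values stood apart by Dixon's test, which flags about 1 in 20 groups by chance. Slc25a47 in Nkx2-5ΔTrbE10 heart 2 was 5.50, where the nearest heart of the group was 7.51. Slc25a46, by its dimmer probe, was 6.81 in control 1, where the other controls were 6.24 to 6.26. Slc25a38 was 11.498 in control 2, where the other controls were 11.69 to 11.70.

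The 5′ probe of Slc25a37 was flagged because every Nkx2-5ΔTrbE10 heart lay below the control mean and every Nkx2-5ΔTrbE14 heart above it. The mean deviations were -1.20 and 0.36, which differ by -1.56. The limma test of that difference gave adjusted p = 0.363, and the 3′ probe did not show it. Slide and early deletion cannot be told apart here.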

How the results depend on the processing

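The count of called carriers stayed at 0 in all comparisons under every alternative run, with these exceptions. SAM called 1 probe between the mutants, the 5′ probe of Slc25a37, and leaving out 1 array gave 0 to 1 in Nkx2-5ΔTrbE10 against control. These were the same probe of Slc25a37 without control 3 (-1.60, adjusted p = 0.00965) and the 3′ probe of Slc25a3 without Nkx2-5ΔTrbE10 heart 2 (-0.80, adjusted p = 0.0363). The family median ran from -0.16 to -0.07 in Nkx2-5ΔTrbE10, from -0.08 to -0.02 in Nkx2-5ΔTrbE14 and from -0.05 to -0.003 between the mutants.

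Of 1560 values of named carriers under 20 alternatives, 3 turned direction by more than their standard error. Slc25a12 in Nkx2-5ΔTrbE14 was -0.030 with 75th percentile scaling. Leaving out 1 array, the 5′ probe of Slc25a37 in Nkx2-5ΔTrbE14 ran from -0.026 (without control 3) to 0.63, and Slc25a47 between the mutants from -0.52 to 0.27 (without Nkx2-5ΔTrbE10 heart 2). The cause was not tested. A smaller turn of sign occurred in others, and 77 values changed sign in all. Over the whole array, probes called in Nkx2-5ΔTrbE10 fell from 416 to 197 without a filter and to 263 with only 2 groups fitted, and in Nkx2-5ΔTrbE14 they went from 148 to 240 with normexp. Leaving out 1 array gave 155 (without Nkx2-5ΔTrbE10 heart 3) to 717 (without Nkx2-5ΔTrbE10 heart 2) in the early and 85 to 190 in the late mutant. Between the mutants, up to 2 probes were called in place of 0.

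The labels number replicates 1 to 4 in each group. Deviations from the group means of same-numbered hearts of the mutants correlated at 0.37, 0.31, -0.01 and 0.48 for numbers 1 to 4, and those of control and mutant hearts at -0.24 to 0.08. Since not every correlation was over 0.1, the numbers were not taken as pairs. With a replicate block, 0 carriers were called in each comparison and the medians were -0.11, -0.07 and -0.02. Dim probes such as the 5′ probe of Slc25a37 lie close to background, where differences depend on how it was subtracted. The number of arrays limits what could be called.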
